A study of Mus musculus with 3647 samples.

Results

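The mouse genes of the respiratory chain that are encoded in the nucleus were followed across single nuclei and Patch-seq libraries. Members were all symbols that begin with Nduf, Uqcr, Atp5 or Cox followed by a digit from 4 to 8, plus Sdha, Sdhb, Sdhc and Sdhd, without pseudogene and Rik names. The rule gave 92 of the 23420 genes in the deposited tables. Complex I had 36 members, complex II 4, complex III 8, complex IV 20 and complex V 15, and 9 encode assembly factors or related proteins. Their transcripts were short, with 40 of 89 members in the length comparison under 750 bases and the longest at 4715, against a median of 2665 bases over 19367 genes with a length. Each length is that of the annotated transcript with the longest coding sequence. Whether that form was the one expressed was not checked.

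Mitochondria make most of a neuron's ATP by oxidative phosphorylation. Complex I takes electrons from NADH and complex II from succinate, complex III passes them to cytochrome c, and complex IV, cytochrome c oxidase, hands them to oxygen. The proton gradient that results drives complex V, the ATP synthase. Most subunits are made from nuclear genes and imported, and some of complex IV and complex V come in isoforms that differ between tissues. Fast-spiking neurons that carry parvalbumin, which include neurons of the thalamic reticular nucleus (TRN), are known for a high demand for ATP.

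The study sorted mouse brain nuclei into plates by a DNA dye and read each nucleus with a modified Smart-seq2 protocol. Of 3647 samples, 2653 had expression values, and sizes below are percents of these 2653. TRN nuclei sorted for the dye and for NeuN, a neuronal nuclear protein, made 28.4% (8 plates), and TRN nuclei sorted for the dye alone, called unselected here, made 26.2% (13 plate names). Tissue next to the TRN, sorted for the dye alone, made 9.05% (4 plates). Some plates had been sorted for the dye and GFP, a sort that the design text describes as Pvalb-positive. Of these, hippocampus (7 plates) made 16.6%, M2 cortex (3) 6.33%, somatosensory cortex (2) 5.62% and striatum (1) 2.68%. Values were present for 98.05% of the NeuN samples, 55.6% of the unselected, 62.7% of the adjacent and 70.5 to 87.5% of the GFP-sorted. A further 43 of 48 hippocampal nuclei had no sort label, and 95 of 95 TRN cells were Patch-seq libraries in 3 batches. The labels used here state no strain, transgene, age or sex. Since the labels name no animal, each group is 1 sample. No p-value is given, and spread is shown over plates.

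Classes of nuclei were rebuilt by clustering without the member genes and named from marker genes. Gad1, which makes GABA, was found in 98.2% of the 560 GABAergic-like nuclei of the NeuN plates, and Pvalb in 79.8%. Slc17a6, a vesicular glutamate transporter, was found in 97.9% of the 140 glutamatergic-like nuclei there. Mbp of myelin was found in 100% of the oligodendrocyte-like nuclei of the unselected plates (11.1% of all samples with values) and Aqp4, a water channel of astrocytes, in 69.6% of the 79 astrocyte-like nuclei. Against the sort's description, hippocampal GFP plates held more glutamatergic-like nuclei (8.59% of all samples with values), of which Pvalb was found in 6.14%, than GABAergic-like nuclei (3.66%, 97 nuclei), where it was found in 68.04%. Gad1 was found in 92.6% and Pvalb in 88.4% of the Patch-seq libraries.

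RefSeq promoter windows of GRCm38.p6, from 250 bases before to 50 after a gene's start, matched 74 of the 92 members in 80 windows. The core of nuclear respiratory factor 1 (NRF1), a regulator of mitochondrial genes, is GCGCA, any base, then GCGC, and was in 25% of these windows and in 4.6% of all 32851. The ETS core CCGGAAG, bound among others by GABPA, was in 21.2% against 8.86%. The YY1 core ATGGCGG was in 17.5% against 4.05%. At least 1 of the 3 was in 55% against 15.5%. Both strands were searched, and a match is a description of letters, not of binding. The 250 bases before the start are shown for the 3 members with 3 matches there, Sdha (chr13:74350241-74350490), Ndufb4 (chr16:37654369-37654618) and Cox6a1 (chr5:115348959-115349208), and for an isoform pair whose levels parted between neurons and astrocyte-like nuclei, Cox6b1 (chr7:30626115-30626364) and Cox6b2 (chr7:4753095-4753344). All 5 are on the minus strand and are written 5′ to 3′ along the gene. Capitals mark matches to the 3 cores on either strand.
Sdha: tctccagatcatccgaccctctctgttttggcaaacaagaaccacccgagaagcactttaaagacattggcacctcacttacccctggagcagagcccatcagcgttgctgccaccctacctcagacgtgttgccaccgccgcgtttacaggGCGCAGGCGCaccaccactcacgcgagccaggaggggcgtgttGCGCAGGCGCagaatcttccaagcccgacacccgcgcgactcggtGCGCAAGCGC
Ndufb4: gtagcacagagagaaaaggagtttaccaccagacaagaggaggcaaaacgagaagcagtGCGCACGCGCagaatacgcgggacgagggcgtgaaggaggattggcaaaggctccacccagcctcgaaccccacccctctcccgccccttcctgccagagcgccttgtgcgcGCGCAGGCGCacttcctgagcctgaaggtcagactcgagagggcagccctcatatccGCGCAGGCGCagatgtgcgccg
Cox6a1: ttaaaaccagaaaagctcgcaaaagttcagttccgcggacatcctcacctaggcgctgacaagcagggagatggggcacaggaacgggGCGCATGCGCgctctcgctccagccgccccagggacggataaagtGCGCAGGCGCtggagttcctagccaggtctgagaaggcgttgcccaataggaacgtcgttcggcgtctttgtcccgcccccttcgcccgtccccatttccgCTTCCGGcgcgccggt
Cox6b1: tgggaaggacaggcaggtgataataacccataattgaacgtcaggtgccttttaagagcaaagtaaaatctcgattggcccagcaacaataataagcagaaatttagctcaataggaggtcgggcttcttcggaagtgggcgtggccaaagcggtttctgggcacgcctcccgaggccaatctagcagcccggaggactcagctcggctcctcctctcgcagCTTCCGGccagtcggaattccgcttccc
Cox6b2: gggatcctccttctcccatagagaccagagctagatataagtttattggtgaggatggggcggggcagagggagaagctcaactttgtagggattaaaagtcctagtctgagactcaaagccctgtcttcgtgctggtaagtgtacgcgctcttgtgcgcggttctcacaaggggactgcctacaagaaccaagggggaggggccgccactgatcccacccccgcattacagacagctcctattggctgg

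Sdha and Ndufb4 each held 3 matches to the NRF1 core in these bases, and Cox6a1 held 2 with 1 ETS core. Cox6b1 held 1 ETS core, and none of the 3 cores was in the window of Cox6b2.

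Among the named classes, the members together took the largest share of the transcriptome in GABAergic-like nuclei of the unselected TRN plates and of adjacent tissue. Transcripts per 1000000 (TPM) are corrected for length, so levels can be set side by side between genes. In the unselected TRN plates the GABAergic-like nuclei (6.86% of all samples with values) gave 2.98% of their TPM to members (plate means 2.13 to 3.32%, SD 0.379), in adjacent tissue 38 such nuclei gave 3.02% (2.28 to 3.31%), and in the NeuN plates 560 gave 2.43% (1.89 to 2.97%, SD 0.382). Glutamatergic-like nuclei were lower in each setting, at 1.94% in the NeuN plates (1.64 to 2.32%), 2.12% in the unselected plates and 1.86% in adjacent tissue. The plate ranges of the 2 classes in the NeuN plates overlapped. Of the 38 GABAergic-like nuclei of adjacent tissue, 8, 20, 2 and 2 fell in clusters where 4 TRN markers were common. The other 6 fell in the cluster where none of the TRN markers was common.

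Glia lay lower again. Oligodendrocyte-like nuclei had 1.39% in the unselected TRN plates (1.06 to 1.68%) and 1.43% in adjacent tissue. Astrocyte-like nuclei had 1.41% in the unselected plates, 1.53% in adjacent tissue, 1.26% in hippocampus and 1.0% in striatum. No plate mean of the oligodendrocyte-like nuclei reached the lowest plate mean of the GABAergic-like nuclei of the same group.

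In the GFP-sorted regions GABAergic-like nuclei again had a larger mean share than glutamatergic-like nuclei where both were found. GABAergic-like nuclei had 2.02% in hippocampus (1.29 to 2.84%), 1.89% in M2 cortex (1.08 to 2.31%), 1.31% in somatosensory cortex and 1.39% in striatum. Glutamatergic-like nuclei had 1.53% in hippocampus (1.21 to 2.27%), 1.32% in M2 cortex and 0.883% in somatosensory cortex. Patch-seq libraries had 2.36%, with batch means of 1.72, 2.39 and 3.36%.

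The classes also differed in depth. The median nucleus had 5103 detected genes among GABAergic-like nuclei of the NeuN plates, 4485.5 in the unselected plates, 1988 among oligodendrocyte-like and 2159 among astrocyte-like nuclei, and 6654 in Patch-seq. A median of 53 members was found per nucleus in the first of these, 50 in the second, 14 in oligodendrocyte-like and 16 in astrocyte-like nuclei and 68 in Patch-seq. Within a class the members' share moved little with detected genes in the TRN (Spearman rho -0.16 over the GABAergic-like nuclei of the NeuN and -0.03 over those of the unselected plates) and more in hippocampal GABAergic-like nuclei (0.44, n = 97) and Patch-seq (0.36, n = 95). Beyond values at matched numbers of detected genes, the part of depth in the differences between classes was not tested.

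**Figure D1:**
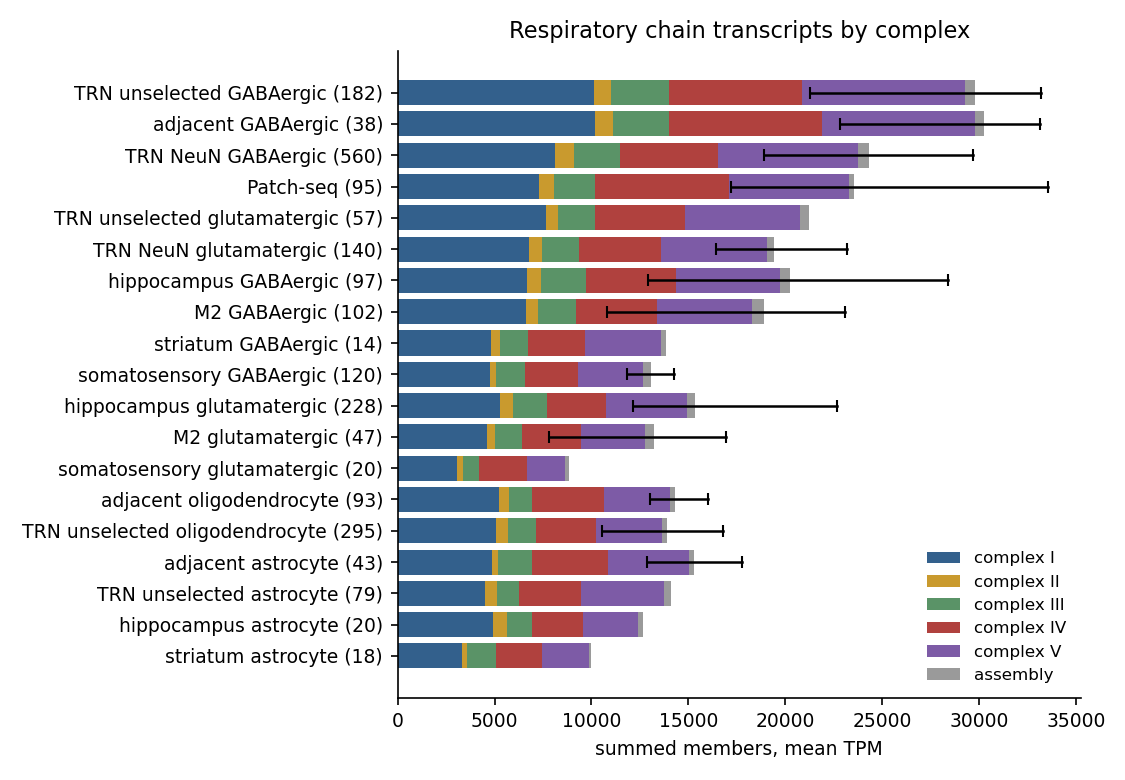
Summed mean TPM of the members, stacked by complex, for each class of nuclei named from marker genes and for Patch-seq, with the number of nuclei in brackets; the line spans the lowest to the highest plate mean where at least 2 plates hold 10 nuclei. GABAergic-like nuclei of the TRN plates reach 29773 TPM (unselected) and 24295 TPM (NeuN), and oligodendrocyte-like nuclei of the unselected plates 13877 TPM.

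Complex I made the largest part of the members' total in every named class and in Patch-seq. In GABAergic-like nuclei of the NeuN plates complex I summed to 8109 TPM, 33.4% of the members' total, complex V to 7269 (29.9%), complex IV to 5011 (20.6%), complex III to 2410 (9.92%) and complex II to 973.8 (4.01%). In oligodendrocyte-like nuclei complex I made 36.7% and complex V 24.7%. Over all the named classes and Patch-seq, complex II ranged from 1.88% (astrocyte-like, adjacent tissue) to 5.85% (astrocyte-like, hippocampus), complex III from 8.16 to 14.9% and complex IV from 19.6 to 29.4%. The order of single members was close too. Over the 92 members, levels in the GABAergic-like nuclei of the NeuN plates had a Spearman rho of 0.98 with those in the unselected plates, 0.90 with oligodendrocyte-like and 0.88 with astrocyte-like nuclei, 0.96 with hippocampal GABAergic-like nuclei and 0.84 with Patch-seq. These are descriptions across genes, which are not independent.

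Atp5b led the members. This gene for the catalytic beta subunit of the ATP synthase was the highest member in GABAergic-like nuclei of the NeuN plates at 2205 TPM (lowest plate 1795, median 2188, highest 2632) and was found in 99.3% of them. Next came Cox4i1, the common isoform of subunit 4 of cytochrome c oxidase, at 1167.9 TPM (802.6 to 1540), Atp5a1, the alpha subunit of the synthase, at 906.4 (650 to 1177.4), Uqcrc1, a core protein of complex III, at 892.3 (708.5 to 990), and Cox5a of complex IV at 681.7 (386.4 to 927.4). The plate ranges of the last 4 overlapped one another, whereas that of Atp5b stood above them all. These 5 members made 24.1% of the members' TPM.

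In complex I the highest members of that class were Ndufa10 at 520 TPM and the core subunit Ndufs7 at 516.5, and the lowest was Ndufa11 at 57.5. Sdha, the flavoprotein of complex II that oxidises succinate, stood at 487.7 TPM (410 to 594.7), above the iron-sulfur subunit Sdhb at 300 (213.2 to 378.6) and the membrane anchors Sdhd at 115.4 and Sdhc at 70.9. Subunits of 1 complex thus spanned a wide range of transcript levels. At the other end, Cox4i2, Cox7b2, Cox8c and Ndufa4l2, isoforms known from other tissues, were each below 1 TPM in this class.

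Atp5b was also the highest member in glutamatergic-like nuclei of the NeuN plates (1423 TPM) and in hippocampal GABAergic-like (1231.5) and glutamatergic-like (1045.1) nuclei. In oligodendrocyte-like nuclei Cox4i1 led with 1124.6 TPM (plates 621.99 to 1466) over Atp5b with 678.9 (384.99 to 973.98), and these ranges overlapped. In GABAergic-like nuclei of somatosensory cortex Uqcrc1 led with 630 TPM.

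Comparisons used the log2 ratio of the mean TPM, each plus 1. A gene was kept where the 2 means averaged at least 1 TPM, and a difference of at least 2-fold was counted. The share of all kept genes that passed the same limit is given as background for the main setting.

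**Figure D2:**
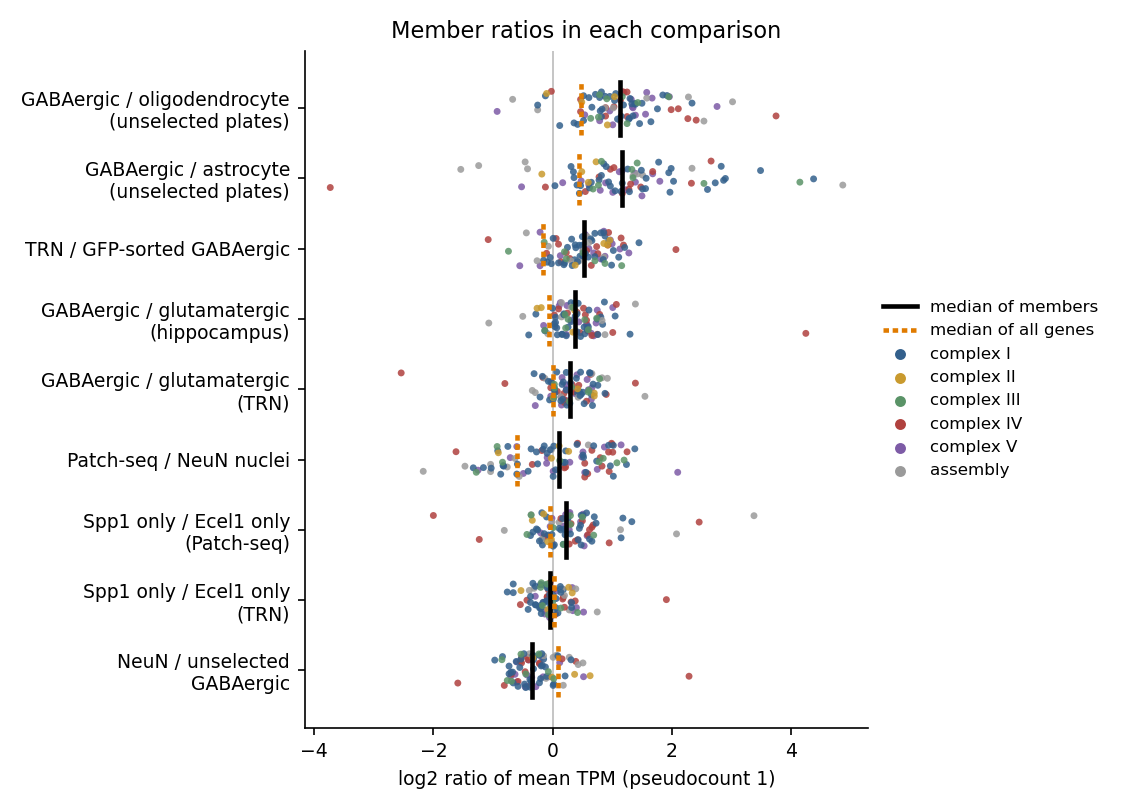
Log2 ratio of mean TPM (pseudocount 1) of every member kept in each of 9 comparisons; each point is a member, coloured by complex, black lines are medians of the members and orange dotted lines medians of all genes kept (members listed at 0 on one side are not drawn). Member medians are 1.13 and 1.17 against the glial classes and -0.34 between NeuN and unselected plates.

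In TRN tissue GABAergic-like nuclei had more of most members than glutamatergic-like nuclei. Over NeuN and unselected plates together, where these classes made 27.97 and 7.43% of all samples with values, 74 of 90 members were higher, and the median log2 ratio was 0.29 against -0.00 over all genes, of which 49.8% were higher. The median was above 0 in 14 of 14 plates that held both classes (0.09 to 0.78, SD 0.19). At least 2-fold higher were 3 of 90 members (background 11.1%) and lower 1 (background 11.1%), and of these 4 only Ndufaf2 averaged at least 5 TPM. The count at least 2-fold higher ranged from 1 to 27 over the alternatives, the latter with the difference of mean log2 values, where the median was 0.60. The share of all genes was not counted under the alternatives, so this range has no background. Complex II had a median of 0.56, complex III 0.30 with 8 of 8 members higher, and complex I 0.23 with 30 of 36.

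Atp5b averaged 2163 TPM in these GABAergic-like nuclei (plates 1462 to 2632) and 1375 in glutamatergic-like nuclei (1219.7 to 1609), a log2 ratio of 0.65. Its plate ranges overlapped, but they cover 17 NeuN and unselected plates for GABAergic-like nuclei and only 8 NeuN plates for glutamatergic-like nuclei. On the NeuN plates alone the GABAergic-like range of Atp5b, given above, lay wholly above the glutamatergic-like one. Within a plate Atp5b was higher in all 14 that held both classes. The same held for Atp5a1 (0.66), Cox4i1 (0.64), Ndufb9 of complex I and Ndufaf2, an assembly factor of complex I. That is 5 members, 5.56%, against a background of 2.89%, and no member was lower in every plate (background 3.32%). Ndufaf2 had the highest ratio among members averaging at least 5 TPM, with 66.4 TPM (5.44 to 193.4) against 22.1 (2.25 to 27.8), or 1.55. Astrocyte markers summed to 108.3 TPM in the GABAergic-like (46.98 to 199.8 by plate) and 298.1 in the glutamatergic-like nuclei (120.6 to 814.4), and their part was not tested. Atp5sl, a factor of complex I assembly despite its name, followed with 93.96 against 49.02 TPM (0.92, higher in 12 of 14 plates), then Ndufa9 with 261.9 against 141.9 (0.88, 12 of 14). The lowest ratios were those of the assembly factor Ndufaf4 (56.1 against 71.03 TPM, -0.34), Ndufa10 (518.1 against 640.9, -0.31) and Ndufaf1 (51.4 against 63.1, -0.29).

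Related pathways lay on the same side. All 7 genes of the carrier list, which moves ATP, phosphate and metabolites across mitochondrial membranes, were higher (median 0.60), as were 15 of 17 genes of the TCA cycle and pyruvate dehydrogenase (0.48) and 14 of 16 glycolytic genes (0.48). The mitochondrial ribosome sat at 0.11 with 48 of 76 genes higher. Among these lists only glycolysis, with 2 genes, and the regulators of mitochondrial biogenesis, with 2, had genes at 2-fold or more.

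Hippocampal GABAergic-like nuclei (97) likewise had more of the members than the glutamatergic-like nuclei of the same plates, with 77 of 87 members higher and a median of 0.38 against -0.06 over all genes, of which 46.97% were higher. The median was above 0 in 7 of 7 plates, between 0.06 and 0.91. Members at least 2-fold higher numbered 7 members (8.05%, background 13.2%) and 1 was lower (background 18.5%). Complex IV had the highest median, 0.57, with 15 of 15 members higher, while complex II lay at 0.07 and Sdha was lower in 6 of 7 plates (283.2 against 323.4 TPM). Higher in every plate were 4 members, Uqcrc1 (843.7 TPM against 558.1), Cox6a2, Cox7b of complex IV and Atp5h of complex V (background 4.29%), and none was lower in every plate (background 7.33%). The highest ratios were Cox6a2, described with the isoforms, Atp5sl with 60.2 against 22.4 TPM (1.39) and Ndufs5 with 99.01 against 39.6 (1.30). The lowest were Ndufaf6 (17.9 against 38.7 TPM, -1.07), Ndufaf1 (-0.50) and Ndufs4 (-0.40). Glycolysis (median 0.05) and the TCA list (0.16) were nearer to 0 here than in the TRN; that difference was not tested. Astrocyte markers summed to 246.6 TPM in the GABAergic-like and 704.9 in the glutamatergic-like nuclei, with plate ranges of 74.2 to 446.6 and 408.4 to 1268; their part in the result was not tested.

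Against oligodendrocyte-like nuclei of the same unselected TRN plates, 80 of 87 members were higher in GABAergic-like nuclei, as were 63.5% of all genes. The median log2 ratio was 1.13 against 0.48 over all genes, and it was above 0 and above that of all genes in 12 of 12 plates (0.75 to 1.69, SD 0.26). Among nuclei of 3000 to 6000 detected genes the median was 1.11 and that of all genes 1.68, so the members were no longer above all genes. In this comparison those at least 2-fold higher were 51 members (58.6%, background 37%) and none was lower (background 17.3%). Higher in every plate were 17 members (19.5%, background 9.44%) and none was lower in every plate (background 4.06%). By complex the medians ran from 0.71 for complex II to 1.34 for complex V.

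The ATP synthase and complex IV held the widest gaps. Atp5b had 2033 TPM (1462 to 2466) against 678.9 (384.99 to 973.98), a ratio of 1.58 with plate ranges apart. Cox5a of complex IV had 937.8 TPM (616.3 to 1488) against 193.6 (19.2 to 381.5), or 2.27, also apart. Atp5g3, a gene for the c-ring of the synthase, had 566.99 TPM (231.6 to 936.3) against 83.01 (0 to 206.6), or 2.76, again without overlap. Cox4i1 had a narrower gap, at 1556 against 1124.6 TPM (0.47); its plate ranges of 1151.4 to 1965 and 621.99 to 1466 overlapped, and it was higher in GABAergic-like nuclei on 12 of 12 plates. Cox6a2 had 49.6 against 2.76 TPM (3.75, found in 34 and 4 nuclei) and Ndufaf6 21.6 against 1.78 (3.02, 22 and 3 nuclei).

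A few members went the other way. Atp5g2, another c-ring gene, had 95.6 TPM (35.5 to 175.3) in GABAergic-like and 182.6 (0 to 325.8) in oligodendrocyte-like nuclei, a ratio of -0.93, and was higher in the GABAergic-like nuclei on only 3 of 12 plates. Ndufaf3 (43.9 against 70.4 TPM, -0.67) and Ndufv3 (140.98 against 167.7, -0.25) followed, but each was higher in GABAergic-like nuclei on most plates (8 and 7 of 12). Glycolysis parted further than the members, with 15 of 16 genes at least 2-fold higher and a median of 2.40, and the cytoplasmic ribosome did not, at -0.09. With nuclei of 3000 to 6000 detected genes alone, which left 8 oligodendrocyte-like nuclei, the member median was 1.11 and that of all genes 1.68, so the members no longer lay above all genes.

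Against astrocyte-like nuclei (79), which share their GABAergic-like side with the comparison above, 79 of 88 members were higher, with a median of 1.17 against 0.44 over all genes, of which 59.6% were higher. Plate medians were above 0 in 10 of 10 plates and above all genes in 9 (0.45 to 3.77, SD 1.02), and each plate held at most 10 astrocyte-like nuclei. Those at least 2-fold higher were 50 members (background 38.9%) and lower 4 (background 21.6%). Higher in every plate were 11 members (12.5%, background 9.36%) and none was lower in every plate (background 2.35%). All 36 members of complex I were higher.

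Some members were hardly found in astrocyte-like nuclei. Uqcrb, a small subunit of complex III, had 371.8 TPM against 19.96 (4.15, higher in 10 of 10 plates), Ndufb4 of complex I 94.9 against 3.59 (4.38, 9 of 10) and the assembly factor Ndufaf1 55.8 against 0.936 (4.87, found in 38 and 1 nuclei). Atp5b was closer, at 2033 against 1097.1 (0.89), and Sdha had 376.6 against 248.9 (0.60). Lower in the GABAergic-like nuclei were Cox6b2 (1.51 against 32.2 TPM) and Ndufaf6 (21.6 against 64.7, -1.54), which was found in 22 and 5 nuclei. Cox4i2 was listed at 0 in GABAergic-like nuclei and at 19.4 TPM in astrocyte-like nuclei, all of it from 1 nucleus.

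GABAergic-like nuclei of the TRN had more of most members than GABAergic-like nuclei of the GFP-sorted plates, averaged over the means of 4 regions (12.6% of all samples with values). The 2 tables were normalized separately, so these levels are set across tables. On the TRN side, 20.7% of the NeuN nuclei and 14 unselected nuclei lay in a cluster where none of the TRN markers was common. Alternatives other than leaving out a plate gave member medians of 0.42 to 1.38, and leaving out that cluster was among them. The median ratio was 0.53 against -0.16 over all genes, with 74 of 88 members higher, and each of 17 TRN plates gave a median above 0 (0.03 to 0.86, SD 0.25). Each plate was set against the same GFP mean, so these values leave out the spread of the GFP plates. Region, sort and set of plates coincide here and cannot be told apart. Median detected genes were 4911.5 in the TRN and 4273 in the GFP-sorted nuclei. At least 2-fold higher were 10 members (11.4%, background 10.1%) and 1 was lower (background 16%). The count at least 2-fold higher was 17 without 1 hippocampal plate, 5 without the striatum and 57 with the difference of mean log2 values. The share of all genes was not counted under these alternatives, so these counts have no background. No member had plate means apart between the 17 TRN and 12 GFP plates (backgrounds 0.529% higher, 0.403% lower).

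Ndufc2 of complex I led with 289.1 TPM (93.99 to 525.9) against 105.1 (0 to 321.7), or 1.45. Atp5b had 2163 (1462 to 2632) against 889.1 (427.99 to 1806), or 1.28, Ndufb6 224.7 against 96.7 (1.21) and Cox4i1 1263 (802.6 to 1965) against 554.01 (157.8 to 1346), or 1.19. All of these ranges overlapped. Complex II had the highest median by complex, 0.89, with 4 of 4 members higher. Cox6a2 was the member at least 2-fold lower, with 35.1 TPM (3.22 to 100.6) against 75.2 (0 to 197.6), or -1.08; Uqcr10 (112.9 against 190, -0.74) and Atp5k (85.4 against 125.4, -0.55) followed. Glycolytic genes were shifted further, with 9 of 16 at least 2-fold higher and a median of 1.06, and the TCA list stood at 0.64. Microglial markers summed to 19.8 TPM in the TRN nuclei (0.443 to 351.9 by plate) and 170.3 in the GFP-sorted nuclei (19.8 to 578.2 by plate); their part was not tested.

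Some isoforms made different shares of their set in different cell classes. Cox6a2, the heart and muscle form of subunit 6a of cytochrome c oxidase, was found beside the common form Cox6a1 in GABAergic-like nuclei of each region but the striatum, where it was in 0 of 14, which allows a share of up to 21.4%. In hippocampal GABAergic-like nuclei it had 97.8 TPM (lowest plate 8.89, median 91.4, highest 190), 26.8% of the 6a pair, and was found in 30 of 97 nuclei (30.9%, exact binomial 95% interval 21.9 to 41.1). In hippocampal glutamatergic-like nuclei it had 4.19 TPM (0 to 12.8) and was found in 5 nuclei (2.19%, 0.716 to 5.04). It was higher in the GABAergic-like nuclei on 7 of 7 plates, with a ratio of 4.25. These intervals cover counting error only.

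The cortex gave the same picture for Cox6a2. It made 33.1% of the pair in GABAergic-like nuclei of M2 cortex (128.99 TPM, 30 nuclei, 29.4%) and 36.02% in somatosensory cortex (74.05 TPM, 23 of 120). It was listed at 0 in the glutamatergic-like nuclei of both, in 0 of 47, which allows up to 6.38%, and 0 of 20, which allows up to 15%. In the TRN the share was lower and the classes alike, with 9.27% in GABAergic-like (30.4 TPM, 90 of 560) and 8.12% in glutamatergic-like nuclei (26.6 TPM, 18 of 140) of the NeuN plates. Astrocyte-like nuclei of the unselected plates had it in 0 of 79, which allows up to 3.8%, and oligodendrocyte-like nuclei in 4 (1.36%, 0.371 to 3.44).

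Among GABAergic-like nuclei Cox6a2 was found in a larger share of those with Pvalb in each group given here. The intervals pool nuclei over plates and leave out the spread between plates, so they do not test this difference. In the NeuN plates it was in 88 nuclei with Pvalb (19.7% of these, 16.1 to 23.7) and 2 without (1.77%, 0.215 to 6.25). Of the GABAergic-like nuclei there, 20.7% lay in a cluster where none of the TRN markers was common. The part of that cluster in this split was not tested. In the unselected TRN plates Cox6a2 was in 20.1% of nuclei with Pvalb (14.3 to 27.1, mean 51.5 TPM). Without Pvalb it was in 1 nucleus (5.56%, 0.141 to 27.3, mean 32.4 TPM), and these intervals overlapped. In M2 cortex it was in 27 of 70 (38.6%, 27.2 to 51) and 3 of 32 (9.38%, 1.98 to 25). In hippocampus it was in 24 of 66 and 6 of 31, and mean levels there were alike (97.8 and 97.9 TPM). In somatosensory cortex the shares were 21.4% (13.2 to 31.7) with Pvalb and 13.9% (4.67 to 29.5) without, and these intervals overlapped. In Patch-seq the mean level was 41.6 TPM in 84 libraries with Pvalb and 68.5 TPM in 11 without. Nuclei with Pvalb had more detected genes (5162 against 4825 in the NeuN plates), which also raises the chance of finding a gene. Cox6a2 shares exon bases with Itgad, an integrin gene of leukocytes, and the labels state no strand setting for the counting; Itgad was at most 3.53 TPM in any class.

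Cox6b2, the testis form of subunit 6b, appeared in astrocyte-like nuclei. It had 245.6 TPM in striatum (9 of 18 nuclei, 96.999% of the pair with Cox6b1), 70.8 in hippocampus (7 of 20, 36.3%), 38.004 in adjacent tissue (3 of 43, 19.9%) and 32.2 in the unselected TRN plates (5 of 79, 33.5%). In the GABAergic-like nuclei of the NeuN plates it had 2.29 TPM in 11 of 560, 0.797% of the pair. In Patch-seq it was found in 13 of 95 libraries (13.7%, 7.49 to 22.3) at a mean of 6.81 TPM. That share was above the 6.33% of astrocyte-like nuclei in the unselected plates and the 6.98% in adjacent tissue. Patch-seq libraries also had more detected genes. The 4 astrocyte-like values rest on few nuclei. Atp5g2 made 43.98% of the c-ring set of Atp5g1, Atp5g2 and Atp5g3 in oligodendrocyte-like nuclei of the unselected plates and 39.2% in adjacent tissue, against 14.8% in GABAergic-like nuclei of the NeuN plates and 7.66% in the unselected plates. The 3 c-ring genes encode the same mature protein with different import sequences.

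**Figure D3:**
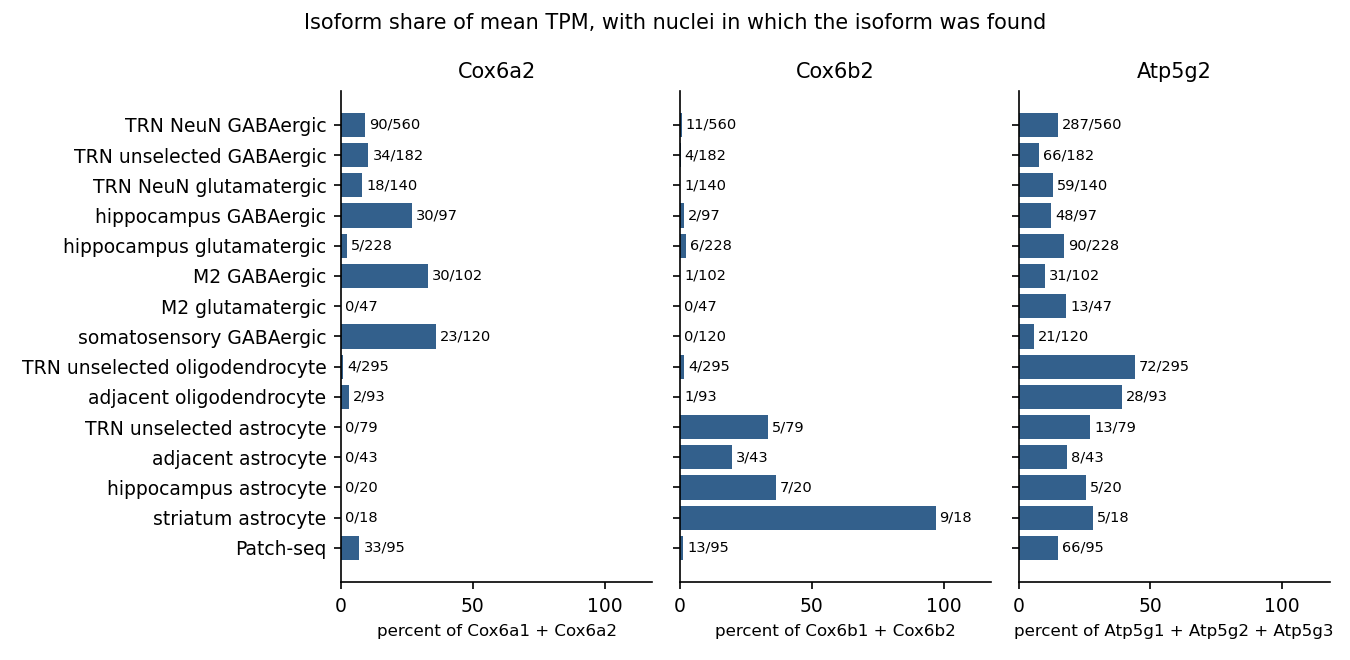
Bars give the percent of an isoform set's mean TPM made by Cox6a2, Cox6b2 and Atp5g2 in 14 classes named from markers and in Patch-seq, with the number of nuclei in which it was found over all nuclei. Cox6a2 reaches 36.02% in GABAergic-like nuclei of somatosensory cortex and Cox6b2 96.999% in astrocyte-like nuclei of striatum; both Cox6a genes are listed at 0 in the latter.

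The TRN is known to hold neurons marked by Spp1 and neurons marked by Ecel1. Members hardly differed between GABAergic-like TRN nuclei with Spp1 but no Ecel1 (9.88% of all samples with values) and with Ecel1 but no Spp1 (9.16%). The median ratio was -0.05 against 0.02 over all genes, 33 of 88 members were higher, and plate medians lay on both sides of 0 (5 of 12 above, -0.30 to 0.43, SD 0.21). At least 2-fold higher was 1 member (background 6.89%) and none was lower (background 9.8%). None was higher in every plate (background 1.29%) and 1 was lower in every plate (background 1.14%), which are both near or below the background.

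The member lower in all 12 plates was Ndufb11, an accessory subunit of complex I on the X chromosome, with 139.4 TPM (67.3 to 194.2) in Spp1-only and 220 (137.2 to 402.7) in Ecel1-only nuclei, a ratio of -0.66. Its exons overlap those of Rbm10. Ndufs5 (54.5 against 92.8 TPM, -0.76), Ndufa9 (197.6 against 312.1, -0.66) and Sdhb (272.1 against 392.6, -0.53) were lower on average, and Ndufs5 was higher on 5 of 12 plates. On the other side, Ndufaf4 had 68.6 against 40.3 TPM (0.75, higher in 10 of 12 plates) and Atp5j2, a membrane subunit of the synthase, 154.7 against 107.9 (0.52, 9 of 12). Cox7a1, another muscle form, had 8.73 against 1.58 TPM from 8 and 4 nuclei. Atp5b was level, with 2106 against 2177 TPM.

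Among Patch-seq libraries the same split had 32 and 26 libraries, and the member median was 0.22 against -0.05 over all genes. In the 2 batches with enough libraries the member median was 0.13 and 0.30, against 0.14 and -0.12 over all genes. Without the third and largest batch the member median was -0.05. At least 2-fold higher were 7 members (7.87%, background 15.9%) and lower 3 (background 19.2%). Higher in both batches were 33 of 89 members (background 27.5%) and lower in both 13 (background 24.7%). Among members averaging at least 5 TPM, the highest ratios were those of Atp5s (38.3 against 2.78 TPM, found in 13 and 4 libraries), Ndufaf1 (51.5 against 11.5, 2.08) and Ndufb7 (207.5 against 82.1, 1.33). The lowest were Cox6b2 (2.63 against 13.5 TPM), Cox6a2 (24.4 against 58.7, -1.23) and Ndufaf6 (19.4 against 34.9, -0.81). None of Ndufb11, Ndufs5 and Atp5j2, named in the TRN nuclei, was among these.

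Patch-seq libraries, which draw cytoplasm through the recording pipette, differed from the 560 GABAergic-like nuclei of the NeuN plates by which members they favoured. The 2 tables were normalized separately. Of these nuclei, 20.7% lay in a cluster where none of the TRN markers was common, and members made 2.1% of TPM there. Alternatives other than leaving out a plate or batch gave member medians of -0.06 to 1.29. Leaving out that cluster was among them. The member median was 0.11 while that of all genes was -0.59, and it was above all genes in 3 of 3 batches (-0.41, 0.11 and 0.52). Each batch was set against the same mean of the nuclei. At least 2-fold higher were 11 of 90 members (12.2%, background 8.98%) and lower 10 (11.1%, background 29.5%). These counts turned on the batches: without the second batch 2 were higher and 16 lower and the median was -0.29, and without the third 29 were higher and 5 lower and it was 0.51. Against the nuclei, the batches alone had 17, 32 and 3 members at least 2-fold higher, with medians over all genes of -0.83, -0.66 and -0.64. For single batches and for batches left out, the share of all genes was not counted, so these counts have no background. Batch and plate means were apart and higher for 3 members, Atp5e, Cox7b and Ndufa3 (3.33%, background 3.6%), and apart and lower for 16 (17.8%, background 19.5%).

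Among the members higher in Patch-seq was Atp5e, the epsilon subunit of the synthase. It had batch means of 97.1, 273.4 and 300 TPM against plate means of 26.1 to 58.7, and the averages of 182.6 and 41.8 gave a ratio of 2.10. Ndufa1 had 118.1, 177.2 and 323.2 TPM against 27.1 to 140 (1.38), and Ndufs6 103.03, 117.1 and 286.9 against 47.5 to 111.1 (1.24), so the ranges of these last genes overlapped. Cox8a had 859.02 TPM (645.2 to 1648) against 427.1 (270 to 655.9) and Cox6a1 596.3 (370 to 923.98) against 297.5 (171.4 to 476.1), both about 2-fold. Complex IV made 29.4% of the members' TPM in Patch-seq and 20.6% in the nuclei.

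Among the members lower in Patch-seq were Atp5b, Uqcrc2, Ndufa9, Ndufaf4, Sdha and Ndufs1. Being lower was not particular to members: 17.8% had means apart and lower, against 19.5% of all genes. Atp5b had batch means of 780, 881.4 and 1168.5 TPM, all below the lowest plate at 1795, and a ratio of -1.25. Uqcrc2 had 124.9, 149.5 and 204.3 TPM against 303.9 to 499.5 (-1.28), Ndufa9 56.5, 68.3 and 161.6 against 181.9 to 328.4 (-1.33) and Ndufaf4 7.88, 15.8 and 29.4 against 32.05 to 92.5 (-2.17). Sdha had 258.6 TPM (113.6 to 281.4) against 487.7 (410 to 594.7), and Ndufs1, which carries iron-sulfur clusters of complex I, 147.3 (94.01 to 168.2) against 280 (254.7 to 335.02). Cox4i1 was nearly level, at 1032.2 against 1167.9 TPM (-0.18), where the median over all genes was -0.59.

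The members' ratio followed transcript length, with a Spearman rho of -0.60 over 89 members (-0.61, -0.55 and -0.52 in the 3 batches) against -0.05 over 13012 other genes. The 40 members under 750 bases had a median ratio of 0.58 and the 21 of at least 1500 bases -0.83, while other genes of these lengths had 0.30 and -0.65. The cytoplasmic ribosome, another list of short and abundant transcripts, had a median of 0.99 with 41 of 85 genes at least 2-fold higher. The TCA list was at -0.98 and glycolysis at -0.48. Patch-seq libraries also held more microglial (1064.5 against 7.05 TPM in sum) and oligodendrocyte marker transcript (5244 against 1226.4), and 55 of 95 had at least 1 of 4 microglial markers. Without those 55 the member median was 0.39.

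**Figure D4:**
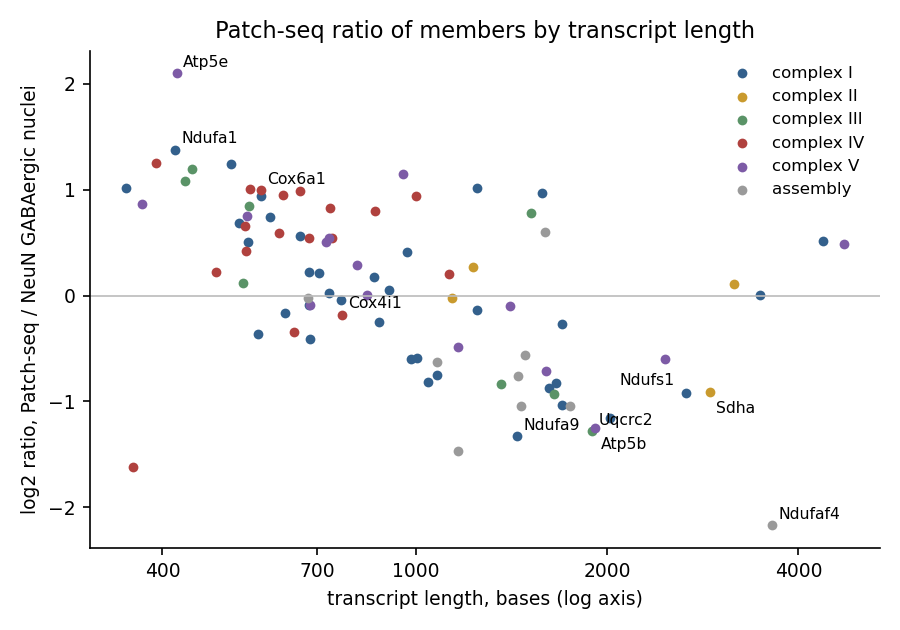
Log2 ratio of mean TPM of each member, Patch-seq over GABAergic-like nuclei of the NeuN plates, against its transcript length on a log axis, coloured by complex. Atp5e (2.10) and Ndufa1 (1.38) lie among the shortest transcripts, and Atp5b (-1.25) and Ndufaf4 (-2.17) among the longer ones.

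Within TRN GABAergic-like nuclei the NeuN plates had less of the members than the unselected plates. The median was -0.34 against 0.09 over all genes, 69 of 88 members were lower, and 0 of 8 NeuN plates had a median above 0 (-0.69 to -0.09, SD 0.22). Each NeuN plate was set against the same mean of the unselected nuclei, so these values leave out the spread of the unselected plates. The direction turned with the difference of mean log2 values, which gave 0.11, and with a marker gate in place of clusters, which gave 0.05. At least 2-fold higher was 1 member (background 8.48%) and lower 1 (background 4.58%), and no member had plate means apart (backgrounds 0.321% higher, 0.0349% lower). The NeuN plates carry 2 kinds of plate name, and 4 of one kind lay between -0.33 and -0.09 and the other 4 between -0.69 and -0.42. The member median was above that of all genes on 2 of 8 plates, both of the first kind. Ndufv3 had 71.3 TPM (48.2 to 93.98) against 140.98 (5.86 to 232.8), or -0.97, Uqcrb 205.97 against 371.8 (-0.85) and Cox7a1 2.55 against 9.65 (-1.59). Higher were Sdhd (115.4 against 74.1 TPM, 0.63), Atp5g2 (137.3 against 95.6, 0.52) and Ndufaf3 (62.98 against 43.9, 0.51). Atp5b was level, at 2205 against 2033 TPM (0.12).

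The groups drew on different clusters of these nuclei. In the cluster with most unselected nuclei (88, beside 120 from the NeuN plates) members made 3.21 and 3.26% of TPM in NeuN and unselected nuclei, with a median ratio of -0.04. In the next, with 78 unselected nuclei and 19.8% of the NeuN ones, they made 2.5 and 2.84%, with -0.18. A cluster with 34.1% of the NeuN nuclei held 2 unselected nuclei and had 2.23%. Another, with 20.7% of the NeuN and 14 unselected nuclei, in which none of the TRN markers was common, had 2.1 and 1.97%. Over the 2 shared clusters alone the member median was -0.14 against -0.02 over all genes.

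Across 19 classes of nuclei, the genes outside the list whose mean level most resembled the members' sum were Ppp2r1a, a scaffold of protein phosphatase 2A (Pearson r 0.908 on the log2 scale), the glycolytic genes Pgam1 (0.902) and Pkm (0.893), Mdh1, the cytosolic malate dehydrogenase (0.898), and Tecr of fatty acid elongation (0.889). Classes share plates, tables and depth, and these values are descriptions.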

How the data were processed

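The members and gene lists were chosen with earlier results of these data known. For the TRN and adjacent nuclei the authors deposited the natural log of 1 plus scaled TPM, which the values showed; for the other nuclei and Patch-seq the authors deposited TPM. Every low value of the log table was within 0.1 of a whole step after back-transformation (236907 values), and each nucleus was brought back to TPM summing to 1000000. Per the submitters' processing notes, RSEM, Bowtie, TopHat2 2.0.10 and Seurat 2.2.0 were used, on mm10, with no roles given. Depth in reads is unknown.

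Nuclei were clustered without member genes (2000 variable genes, 30 components, 15 neighbours, Leiden) with Python 3.11.15, scikit-learn 1.9.0 and igraph 0.11.9. A cluster was named from markers found in at least 50% of its nuclei. The neuron threshold, 4 of 7 markers, was chosen after seeing marker shares. No doublet caller was run. Striatal projection neurons, clusters without a name and neurons without a call entered no comparison. Ratios used a pseudocount of 1 TPM. Genes whose group means averaged at least 1 TPM were kept, and plates entered with at least 10 nuclei, or 5 of each class where shared. Named members were the 3 highest and 3 lowest ratios at 5 TPM or more, core subunits, isoform sets and the highest members. The calculation was tested on simulated data. Intervals are exact binomial at 95%, and a count of 0 was read as up to 3 nuclei. In 25 members exons overlap another gene's, and RSEM may split reads among near-identical copies.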

Additional observations from a re-analysis of the deposited data

Results flagged for a closer look

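Plates that stood far from the others of their set were looked for in 33 sets of 4 to 10 plates, and 3 were found; chance gives about 1 in 20 sets. In GABAergic-like nuclei of the unselected TRN plates the complex V genes summed to 6396 TPM on 1 plate, while the nearest of the 9 plates had 8332 and the highest 9509. In hippocampal glutamatergic-like nuclei the assembly factors summed to 585.4 TPM on 1 plate, against 415.9 on the nearest and 354.5 on the lowest of 7 plates. The median ratio of hippocampal GABAergic-like over glutamatergic-like nuclei was 0.91 on 1 plate, against 0.29 on the nearest and 0.06 on the lowest of 7.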

How the results depend on the processing

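Of the alternative values for levels and medians, 17 moved beyond the plate spread and the rest stayed within it; for single members 2737 stayed, 2 reversed and the others, 5.91%, moved beyond it. Using the difference of mean log2 values moved the member median to 1.38 (TRN over GFP-sorted), 0.60 (GABAergic over glutamatergic, TRN), 3.42 (over oligodendrocyte-like), 3.32 (over astrocyte-like), 0.97 (hippocampus), 0.25 (Spp1-only over Ecel1-only, TRN), 0.52 (the same in Patch-seq) and 0.11 (NeuN over unselected), so the last changed sign, as did Spp1 over Ecel1 in the TRN. It also turned Ndufaf6 to 0.18 against astrocyte-like nuclei and 0.21 in hippocampus. TPM over the median of detected genes gave 1.29 for Patch-seq over nuclei. A marker gate in place of clusters gave 0.81 over oligodendrocyte-like nuclei, 0.05 for NeuN over unselected, which again changed its sign, and a level of 2.25% in unselected GABAergic nuclei. In Patch-seq, Spp1-only over Ecel1-only was 0.05 with batch means, 1.21 with 4 against 10 libraries of 3000 to 6000 detected genes and -0.05 without the third batch; the Patch-seq level was 1.8 to 3.19% over batches left out, the latter without that batch. The oligodendrocyte-like level was 1.85% at 3000 to 6000 genes. The cause was not tested.

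Leaving out each plate or batch in turn gave -0.29 to 0.51 for Patch-seq over nuclei, 0.45 to 0.59 for TRN over GFP-sorted, 0.25 to 0.31 and 0.33 to 0.42 for GABAergic over glutamatergic in TRN and hippocampus, 1.08 to 1.17 and 1.08 to 1.21 over the glial classes, -0.07 to -0.04 and -0.05 to 0.27 for Spp1 over Ecel1 in TRN and Patch-seq, and -0.39 to -0.29 for NeuN over unselected. Restricting to shared clusters and to genes found in enough nuclei was chosen after seeing the data. No mitochondrially encoded symbol was in the tables used here, so scaling without them was not run, and 0 astrocyte-like nuclei had 3000 to 6000 genes, so that limit gave no value. No paired analysis was possible because replicate numbers follow accession order only and no test was run; classes that share plates were set side by side within plates, and the report gives those counts as descriptions.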

Other observations

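The hippocampal plate with no sort label entered no comparison; members made 2.2% of TPM in its 8 GABAergic-like and 1.9% in its 28 glutamatergic-like nuclei. Neurons that the markers left without a class had 2.95% in the unselected TRN plates (46 nuclei), 1.87% in the NeuN plates (42), 2.01% in adjacent tissue (10) and 2.69% in hippocampus (31). Gad1 was found in all of the unselected and adjacent ones and in 92.9% of the NeuN ones. Pvalb was found in 67.4% (unselected) and 76.2% (NeuN). In hippocampus Gad1 was found in 45.2%. The TRN and adjacent ones formed a cluster with 2 of 4 GABAergic markers common, where 3 were needed for a GABAergic-like name. The number of TRN and adjacent nuclei named GABAergic-like also differed between clustering starts. Its part in the levels was not tested. Oligodendrocyte precursor-like nuclei of the unselected plates had 1.66% (17 nuclei), and striatal projection neuron-like nuclei of the striatum 1.44% (18).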
